A study of Mus musculus with 8 samples.

Results

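Broad TET1 domains of untreated cells are stretches of chromatin where TET1 gave one wide ChIP-seq peak in every mock-treated library. The peaks of the 6 deposited lists that overlapped or touched were merged, which gave 134739 autosomal regions. A region was called a domain when each of the 3 mock lists had a peak of 2000 bp or more in it, and 980 regions were. Peak width in the mock lists chose the domains, so the mock widths given here are a description, and no test is given for a difference in width. Coverage is tied to width, so limma results for coverage are given as a description only. The merged domains spanned 2056 to 15694 bp, with a median of 3141 bp.

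The cells were mouse embryonic stem cells (mESHA-Tet1) in which the endogenous Tet1 gene product carries an HA tag, the handle for the antibody. The series design gives the parent line as E14TG2a, and the labels give the strain as C57BL/6N and the genotype as HA-Tet1 in both groups. Both groups were permeabilised with detergent. The 3 mock libraries come from cells kept for 20 min without enzyme, and the 3 nuclease-treated libraries from cells kept as long with RNase H1 at 0.2 U/ul and Nuclease S1 at 0.05 U/ul together. All were then crosslinked with disuccinimidyl glutarate and formaldehyde. The agent label names RNase H1 alone, whereas the protocol names both enzymes, and no group had one enzyme without the other. Each ChIP library was set against 1 input pooled over the replicates of its condition. Nothing in the labels says that replicates were separate cultures, so the spread between them may be technical.

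TET1 oxidises 5-methylcytosine to 5-hydroxymethylcytosine and further products, the first steps of active DNA demethylation. It carries a CXXC domain and in embryonic stem cells is known to sit at CpG-rich promoters and CpG islands, which are mostly unmethylated. RNase H1 degrades RNA that is paired with DNA. Nuclease S1 cuts single-stranded nucleic acid. Together they act on R-loops, in which a transcript pairs with one DNA strand and displaces the other. The comparison addresses how TET1 on chromatin differs with and without these nucleases, and no measure of R-loops was part of the data.

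The depth of a library is given here by its genome-wide background, the mean fragment coverage recovered from its list. In the mock libraries this level was 2.253, 2.232 and 2.131 fragments, and it was 2.11, 1.93 and 2.24 in nuclease-treated replicates 1, 2 and 3. Nuclease-treated replicate 3 thus lay within the mock range. The lists held 72205 to 82126 autosomal peaks in mock and 61213 to 73197 after treatment. Peaks of 2000 bp or more made up 1.99 to 2.29% of the mock lists and 1.19 to 1.36% of the nuclease-treated lists. The domains were 1.53 to 1.77% of mock peaks but held 6.49 to 6.98% of the bases under mock peaks. They took up 55.7 to 61.4% of the peaks that reached 2000 bp in a mock list. Positions are on mm9. No gene annotation or genome sequence of that build was used here, so domains are named by position, and genes or sequence under them are not reported.

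After nuclease treatment the domains were still bound but were narrower and in more pieces, with lower summits. The widest peak in a domain had a median of 2662, 2708.5 and 2645 bp in mock replicates 1, 2 and 3. In nuclease-treated replicates 1, 2 and 3 the median was 2105, 2032 and 2168 bp. All 3 nuclease-treated medians lay below the mock medians, which the rule holds above 2000 bp. Median bases under peaks per domain were 2852 ± 20.5 in mock and 2469 ± 94.8 after treatment (n = 3 each, SD). Per domain, the median ratio of nuclease-treated to mock means was 0.764 for the widest peak and 0.870 for the bases under peaks. Over all 29094 autosomal regions with a peak in every list these ratios were 0.845 and 0.857. In the narrower intermediate regions defined below, where every list had a peak, they were 0.802 and 0.828. A lower ratio of bases was thus not particular to the domains. In 548 of the 979 domains with a peak in every list, all 3 nuclease-treated lists had fewer bases than any mock list, and over all 29094 autosomal regions with a peak in every list 30.6% did. For the widest peak the count was 540, with 30.1% over all regions. The widest peak was above every mock value in all 3 nuclease-treated lists at 6 domains, with 1.58% over all regions. The rule used mock widths, so nothing is read from these counts. Over all 980 domains, peaks covered 3217 ± 36.5 kb in mock and 2753 ± 91.4 kb after treatment (n = 3 each, SD).

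Since chance highs in mock width help a region into the set, each mock library was also judged on domains that the other 2 mock libraries chose. Such a held-out mock library had 0.989 ± 0.0123 of the bases of the choosing pair (median ratio, SD over the 3 held-out libraries). The nuclease-treated libraries had 0.861 ± 0.0319 on the same domains. For the widest peak the ratios were 0.983 ± 0.0116 and 0.748 ± 0.0623 (n = 3 each, SD). A peak of 2000 bp or more was present in 82.4 to 87.7% of domains in a held-out mock library. After treatment it was present in 45.7 to 55.3% (each nuclease-treated library averaged over the 3 choices). In each of these measures the groups did not overlap.

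The order was the same in a choice that ignored the labels, but that choice was not independent of the mock rule. Regions with a peak of 2000 bp or more in any 3 of the 6 lists numbered 1257 and included all 980 domains. The 3 mock peaks of a domain alone bring it in, and only 277 regions were not mock domains. Of the 1257 regions, 89.4 to 93.6% had such a peak in a mock list and 48.9 to 62.7% in a nuclease-treated list. Since most of them are mock domains, these shares are largely set by the rule. Even among the 383 regions chosen by the nuclease-treated lists alone, the median widest peak was 2977 to 3084 bp in mock and 2591 to 2796 bp after treatment. Of those 383 regions, 346 were also mock domains, which is 90.3% of the 383 and 35.3% of the 980. The mock domains were the longer list, and most regions that were broad after treatment were among them.

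**Figure D1:**
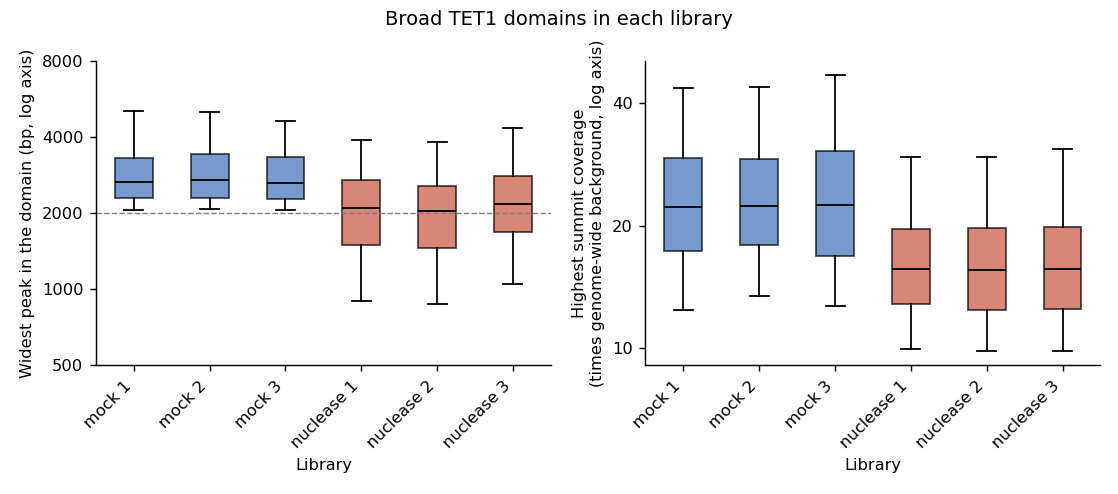
Box plots of the 980 domains in each of the 6 libraries. The left panel gives the widest peak of the domain in bp and the right panel the highest summit coverage in times the genome-wide background, both on log axes. Boxes span the quartiles with the median as a line, whiskers run from the 5th to the 95th percentile, the dashed line is the 2000 bp limit that chose the domains in the mock lists, and the 1 domain without a peak in nuclease 3 is left out there. The nuclease-treated medians of 2032 to 2168 bp and 15.6 to 15.7 times background lie below the mock medians of 2645 to 2708.5 bp and 22.2 to 22.5 times background.

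Domains differed in whether they kept a broad peak. A peak of 2000 bp or more was found in all 3 nuclease-treated lists for 346 domains, in 2 for 208, in 1 for 197 and in none for 229. Domains that kept it in all 3 lists had been wider in mock, with a median widest peak of 3150 bp, against 2397 bp for those that kept it in none. Their mock summit coverage was 24.7 and 22.2 times background. The bases ratio of the 229 domains with no broad peak left was 0.738, and that of the 346 was 0.937. All 21 domains with a mean mock width of 6000 bp or more kept a broad peak in all 3 nuclease-treated lists, while 63 of the 345 domains of 2000 to 2500 bp did. The widest domains had the most room above the limit, so this order is partly set by the limit itself.

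The ratio of bases, from group means, was higher in each wider bin of mock width. It was 0.853 for domains of 2000 to 2500 bp, 0.869 for 2500 to 3000 bp, 0.876 for 3000 to 4000 bp, 0.885 for 4000 to 6000 bp and 0.918 at 6000 bp or more. By library, this rise was unbroken in nuclease-treated replicate 1 only. The bases ratio of replicate 2 was 0.835 at 2000 to 2500 bp and 0.828 at 2500 to 3000 bp. That of replicate 3 was 0.911 at 2500 to 3000 bp and 0.900 at 3000 to 4000 bp. The ratio of the widest peak, from group means, lay between 0.719 and 0.779 with no rising order. Taken for each nuclease-treated library, it was lower at 6000 bp or more than at 2000 to 2500 bp, at 0.643 against 0.803, 0.688 against 0.792 and 0.749 against 0.885 in replicates 1, 2 and 3. The widest bin holds 21 domains, and these differences were not tested. The mean mock width set the bins and also divides the ratio of the widest peak. No held-out library was used here, so chance highs in mock width may lower that ratio in the wider bins, which was not tested. The 275 domains whose narrowest mock value was at least 2000 but under 2200 bp had a bases ratio of 0.833, and the 456 regions at 1800 to under 2000 bp had 0.847.

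Splitting of the domains was more frequent after treatment. A list split a domain when it had 2 or more separate peaks inside it. Mock replicates 1, 2 and 3 split 218, 201 and 218 domains, and the nuclease-treated replicates split 516, 532 and 466. The mean number of peaks per domain was 1.29 ± 0.0200 in mock and 1.76 ± 0.0529 after treatment (n = 3 each, SD). This rise of 0.472 peaks was 0.167 in regions chosen by the nuclease-treated lists. It was 0.0259 when only peaks with a local background of at most 2 times the genome-wide level were kept, which removes whole peaks. A mock domain is by rule mostly 1 wide peak, but held-out mock libraries also split only 29.0 ± 2.07% of domains where the nuclease-treated libraries split 53.7 ± 3.48% (n = 3 each, SD). For the intermediate regions defined below these shares were 10.1 ± 1.05% and 18.2 ± 0.846%, so more frequent splitting was not particular to the domains. All 3 nuclease-treated lists had more peaks than all 3 mock lists in 128 of the 979 domains with a peak in every list. Over all regions with a peak in every list, 1.05% did. The opposite order occurred in 1 domain and in 0.137% of all regions. Wider regions have more room to split, and the share is not a like comparison for that reason.

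Of the 649 domains that were a single peak in all 3 mock lists, 102 were split in all 3 nuclease-treated lists and 254 were single in all 6. The opposite change, split in all 3 mock lists and single in all 3 nuclease-treated lists, occurred in 1 of 85 domains. The rule asks for a peak of 2000 bp or more in each mock list and asks nothing of the nuclease-treated lists. No share over all regions was counted for these patterns, so nothing is read from the counts. Over all gaps between peaks of a domain, the median width was 356, 374.5 and 363 bp in nuclease-treated replicates 1, 2 and 3 and 330.5, 332 and 353 bp in the mock replicates. The widest gap in a list was 1768 to 2425 bp after treatment and 1326 to 2188 bp in mock, and the libraries were sonicated to fragments of 250 bp on average. In split domains the second highest peak had 0.732 to 0.765 of the coverage of the highest after treatment and 0.595 to 0.618 in mock. The pieces of a split domain were thus closer in height after treatment, over a larger set of split domains. In a mock list a split domain must by rule still hold a peak of 2000 bp or more. The nuclease-treated lists carry no such demand, so this difference is tied to the rule and was not tested.

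**Figure D2:**
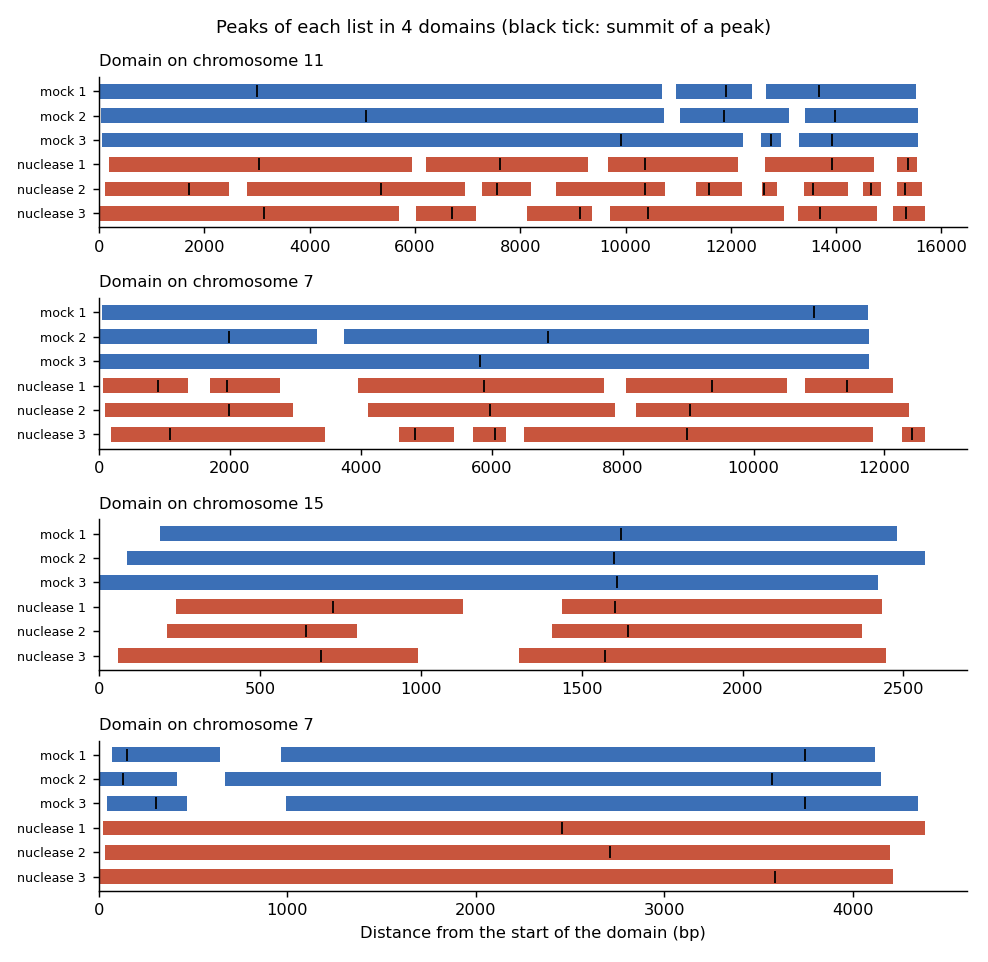
Peaks of each of the 6 lists (bars, mock in blue and nuclease-treated in red) in 4 domains, by distance in bp from the start of the merged domain, with a black tick at the summit of each peak. From top to bottom are the domain with the most mock bases (chromosome 11), that with the third most (chromosome 7), the domain with the lowest coverage ratio (chromosome 15) and the domain that was split in every mock list and single in every nuclease-treated list (chromosome 7).

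Where the bases were lost was read from the mock core, the bases of a domain under a peak in both mock lists that chose it. A held-out mock library covered 95.1 ± 1.02% of core bases, and the nuclease-treated libraries covered 83.9 ± 2.47% (n = 3 each, SD). The bases without a nuclease-treated peak were shared between the ends and the inside of the domains. Bases outside the outermost peaks made up 7.45 ± 1.46% of the core after treatment and 2.09 ± 0.628% in held-out mock. Bases in gaps between peaks made up 8.64 ± 1.097% and 2.69 ± 0.463% (n = 3 each, SD). Of the bases lost, 45.9 ± 2.03% lay at the ends after treatment and 42.6 ± 4.01% in held-out mock, so the split between ends and inside overlapped between the groups while the amount did not.

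Along the length of the core, coverage by peaks was flat inside and dropped at both ends. In the outermost twentieths (5% of the length each) 61.9 ± 5.27% and 61.5 ± 4.00% of bases were under a nuclease-treated peak, against 84.1 ± 2.79% and 84.3 ± 3.95% in held-out mock. At the centre, from 45 to 50% of the length, the values were 86.4 ± 2.01% and 96.2 ± 0.469% (n = 3 each, SD). Both ends were alike within the spread between libraries. With all 3 mock lists defining the core, 74.1% of its 2950 kb was under a peak in all 3 nuclease-treated lists and 3.87% in none. A further 14.7% was under a peak in 2 of these lists and 7.31% in 1, so most of the missing core was missing in some nuclease-treated libraries and present in others.

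**Figure D3:**
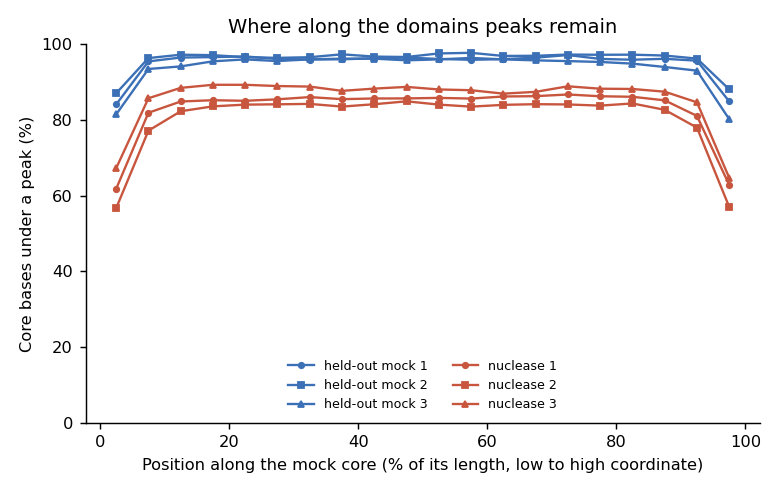
Share of mock core bases under a peak (%, y axis from 0 to 100) along the core in 20 equal bins (x axis, percent of the core length from low to high coordinate). Each blue line is a mock library on domains chosen by the other 2, and each red line is a nuclease-treated library averaged over the 3 choices. Red lines lie below blue lines in every bin, at 83.5 to 88.7% against 95.7 to 97.7% in the central bins from 35 to 60%.

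Summit coverage, the number of fragments over the highest point of a domain divided by the background of the library, was lower after treatment than in mock. The median over domains was 22.2, 22.4 and 22.5 times background in mock replicates 1, 2 and 3. It was 15.7, 15.6 and 15.6 in the nuclease-treated replicates, and the groups did not overlap. These medians stand for 48 to 50 fragments in mock and 30 to 35 after treatment, which limits the precision of a single domain's value. The median ratio per domain was 0.705, with quartiles of 0.631 and 0.780, and the mean was lower after treatment in 970 of 979 domains (99.1%), where it was lower in 84.4% of all regions with a peak in every list. For a held-out mock library the ratio to the choosing pair was 0.989 ± 0.00758, and for the nuclease-treated libraries it was 0.707 ± 0.00378 (n = 3 each, SD). Within the 980 domains, coverage and width were nearly uncorrelated in mock (Spearman's rho of -0.00423, from the same libraries, a description only). All of these domains had passed the width limit, so this value does not show that coverage is free of the rule. Median mock coverage (mean of 3 libraries) was 22.4 times background in the domains and 19.4 in the narrower intermediate regions defined below. Over all peaks of a mock list it was 7.99 to 8.45. Coverage was thus higher in the wider kind of region.

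At 794 of 979 domains the highest nuclease-treated coverage was under the lowest mock coverage. Over all 29094 autosomal regions with a peak in every list, 44.8% did. With limma fitted to the log2 coverage of those 29094 regions, 521 of 979 domains had a Benjamini-Hochberg adjusted p under 0.05 with lower coverage and none with higher coverage. The background shares were 33.3% lower and 0.333% higher, and 691 domains had an unadjusted p under 0.05. The choice of domains used mock values, and nothing is read from these counts about the domains. The median log2 difference was -0.50 for the domains and -0.35 for all regions tested. Coverage was thus lower across the list of regions, and the domains differed from the middle of that list by 0.15 on this scale. That list was not matched to the domains in strength and leaves out regions without a peak in some list. All peaks of a mock list had a median of 7.99 to 8.45 times background. The 0.15 is thus not read as a trait of the domains. When each library was scaled by its median over the shared regions, which sets that common shift to near 0, limma called 19 domains lower and none higher, out of 2.01% of all regions called lower and 1.57% higher.

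In the comparison with narrower regions, the ratio of coverage at matched strength was slightly higher in the domains. The 4932 intermediate regions had a widest peak of at least 1000 but under 2000 bp in each mock list. Regions were binned by the coverage of the 2 mock libraries that chose them, and the nuclease-treated mean was divided by the coverage of the held-out mock library. At 25 to 30 times background the median ratio was 0.676 for domains (0.672 to 0.683 over the held-out libraries) and 0.635 for intermediate regions (0.632 to 0.637). At 15 to 20 times it was 0.757 and 0.701, and at 40 times or more it was 0.656 and 0.647. At 10 to 15 times and at 40 times or more the ranges over the held-out libraries overlapped. No test of this difference between kinds of region was made. The highest summit was taken anywhere in a region, and a wider domain offers more places for it. Highest summits lay over 1000 bp apart between groups in 21.3% of domains and 2.09% of intermediate regions (means over pairs of libraries). The comparison was not matched for this, so the difference is not read as a trait of the domains. In the domains the ratio was lower in each stronger bin, from 0.815 at 10 to 15 times background to 0.656 at 40 times or more. In intermediate regions it was lowest at 30 to 40 times, at 0.634.

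**Figure D4:**
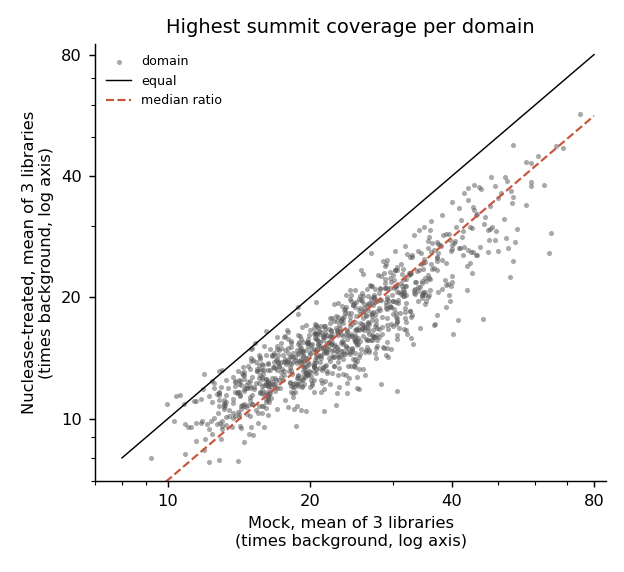
Highest summit coverage of the 979 domains with a peak in all 6 lists, as the mean of 3 mock libraries (x axis) and of 3 nuclease-treated libraries (y axis), both in times background on log axes. Each dot is a domain, the solid line marks equal values and the dashed line the median ratio of 0.705, and 970 dots lie below the solid line.

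**Figure D5:**
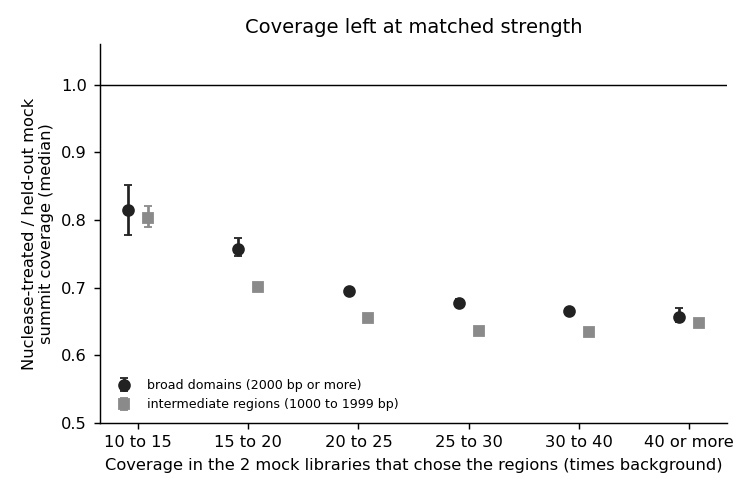
Median ratio of nuclease-treated to held-out mock summit coverage (y axis, which starts at 0.5) in bins of coverage in the choosing mock pair (x axis, times background). Points are means over the 3 held-out libraries and bars their range, for broad domains (circles) and intermediate regions (squares). Ratios go down from 0.815 to 0.656 in domains, and circles lie above squares in every bin, with overlapping ranges in the lowest and the highest bin.

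The position of the highest summit was not used by the rule. In a broad domain it was loosely placed even between mock libraries. The median distance between the highest summits of a domain was 116, 169 and 194 bp for the 3 pairs of mock libraries and 198, 247 and 251 bp for the 3 nuclease-treated pairs. For the 9 pairs between groups it was 192 to 336 bp. Summits lay within 250 bp of each other in 54.7 to 62.7% of domains for mock pairs and in 45.6 to 54.5% for pairs between groups. Distances over 1000 bp were found in 16.2 to 18.8% and 17.98 to 23.0%. Pairs share libraries and are not independent, and nuclease-treated pairs, whose summits hold fewer fragments, overlapped with pairs between groups.

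A change of summit that all libraries shared could be judged only where the summits agreed within each group. In 178 of 979 domains the 3 mock summits lay within 250 bp of each other and so did the 3 nuclease-treated summits. In 160 of these the median positions of the groups were also within 250 bp, and in 18 they were farther apart, by a median of 578.5 bp. The remaining domains could not show such a change. The place of the summit within the domain was also similar, with a median distance from the nearer end of 954.5 to 993.5 bp in mock lists and 959.5 to 999 bp in nuclease-treated lists. In intermediate regions, which are narrower, mock pairs lay 82.3 bp and pairs between groups 104 bp apart (means of the pair medians).

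The local background of the peak caller moved with the treatment. At the highest summit its median was 1.36 to 1.38 times the genome-wide level in mock lists and 1.78 to 1.82 times in nuclease-treated lists, and each group rests on 1 pooled input. The deposited fold enrichment, which divides by it, had a median of 12.2 ± 0.0645 in mock and 7.03 ± 0.128 after treatment (n = 3 each, SD). In the 217 domains whose nuclease-treated local background was at most 1.1 times that in mock, the median ratios were 0.868 for bases, 0.784 for the widest peak and 0.714 for summit coverage. Over all domains these ratios were 0.870, 0.764 and 0.705. The 217 domains were grouped after seeing the data and had a median local background of 1.63 in mock and 1.56 after treatment. Over all 980 domains, Spearman's rho between the change in local background and the bases ratio was -0.090 (a description only). Whether local background bears on the ratios was not tested. In the same 217 domains the mean number of peaks was 1.31 in mock and 1.70 after treatment. In the 234 domains whose local background rose over 1.5 times the ratios were 0.852, 0.732 and 0.686. Only the local background at the highest summit was recovered, and that along the rest of a domain is unknown.

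The largest domain by mock bases lay on chromosome 11 from 120668357 to 120684050. Its widest peak was 10694, 10688 and 12179 bp in mock replicates 1, 2 and 3 and 5746, 4140 and 5688 bp in the nuclease-treated replicates. Every mock list had 3 peaks there, and the nuclease-treated lists had 5, 9 and 6. Bases under peaks were less affected, at 14987, 14875 and 14814 in mock and 13743, 12341 and 13468 after treatment. Summit coverage was 22.6, 20.2 and 20.6 times background in mock and 15.7, 15.0 and 14.3 after treatment. The bases thus differed by less, relative to mock, than the widest peak did.

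The domain with the third most mock bases lay on chromosome 7 from 51787267 to 51799891 and broke up in a similar way. It was a single peak of 11701 and 11759 bp in mock replicates 1 and 3 and 2 peaks in replicate 2, and the nuclease-treated lists had 5, 3 and 5 peaks with a widest of 3760, 4172 and 5322 bp. On chromosome 8 from 73289745 to 73301317 the widest peak was 6961, 7309 and 7022 bp in mock and 2595, 3727 and 4322 bp after treatment. Its coverage was 31.1, 29.1 and 31.9 times background against 20.4, 19.2 and 19.7. Neither pair of groups overlapped.

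Other domains among the 8 largest kept their form to differing degrees. On chromosome 15 from 76000528 to 76014905 the widest peak was 13800, 12254 and 13812 bp in mock and 10414, 8687 and 12324 bp after treatment, which overlaps. Coverage there overlapped as well, at 35.5, 34.9 and 31.9 times background against 34.7, 25.4 and 28.1. On chromosome 10 from 79606481 to 79618490 the bases under peaks were 10437, 10748 and 11290 in mock and 10765, 11392 and 11205 after treatment. Coverage there was 35.5, 33.2 and 43.6 times background in mock and 23.3, 27.5 and 26.4 after treatment, without overlap. Breadth and height thus did not move together at this domain.

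The remaining 3 of the 8 lay on chromosome 17 from 27249298 to 27260106 and on chromosome 10 from 79773214 to 79783443 and from 80003831 to 80013946. Their bases ratios were 0.939, 0.907 and 0.881. The last had coverage of 17.3, 17.0 and 16.9 times background in mock and 16.1, 16.1 and 15.6 after treatment, a ratio of 0.934 (limma adjusted p = 0.689). Its widest peak still went from 9944, 4871 and 9930 bp to 4869, 3544 and 4154 bp.

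The 6 domains with the lowest bases ratios had 2033 to 2961 bases under peaks in the mock lists. On chromosome 10 from 80698549 to 80701169, bases under peaks were 2315, 2558 and 2104 in mock and 611, 641 and 978 after treatment, a ratio of 0.320. On chromosome 6 from 48393982 to 48396385 they were 2404, 2256 and 2301 against 944, 725 and 1081. The next 4 had ratios of 0.444 to 0.478 and lay on chromosome 4 from 129661080 to 129663768, chromosome 2 from 9798392 to 9801532, chromosome 8 from 73062108 to 73064471 and chromosome 5 from 116180876 to 116183022. In all 6 the groups did not overlap. They were picked as extremes, so their size is no estimate of what a repeat would give.

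The 6 domains with the lowest coverage ratios had single mock values of 21.5 to 79.8 times background. They were picked as extremes of these same values, so no p is given for them and their size is no estimate of what a repeat would give. On chromosome 15 from 100444655 to 100447222 coverage was 43.1, 51.5 and 45.0 times background in mock and 18.5, 19.2 and 15.2 after treatment, a log2 difference of -1.40 ± 0.183 (SE). A single peak in every mock list, it was 2 peaks in every nuclease-treated list, and its highest summit lay 1572 to 1644 bp from the start of the domain in all 6. Chromosome 11 from 60350336 to 60352965 had 78.1, 56.0 and 58.7 times background in mock and 29.4, 23.9 and 24.1 after treatment. Chromosome 4 from 134408212 to 134410442 had 36.8, 43.0 and 40.8 against 14.7, 17.1 and 17.0. The groups stood far apart in each.

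On chromosome 8 from 73385359 to 73390286 coverage was 44.8, 39.4 and 39.4 against 19.0, 17.1 and 16.5 times background. The other 2 of these 6 rested in part on mock replicate 3. On chromosome 1 from 179187210 to 179189415 the mock values were 25.3, 21.5 and 45.0 and on chromosome 7 from 71081157 to 71084996 they were 42.6, 37.2 and 79.8. After treatment these were 10.9, 10.9 and 13.4, and 21.8, 20.7 and 25.01. Their bases ratios were 0.913 and 0.884. The groups overlapped in bases on chromosome 1 and did not on chromosome 7.

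A few domains went the other way. All 3 nuclease-treated lists had more bases than all 3 mock lists in 4 of 979 domains, where 1.59% of all regions did. The clearest was chromosome 7 from 26054717 to 26059100, with 3725, 3892 and 3776 bases in mock and 4362, 4163 and 4212 after treatment. Each mock list had 2 peaks there and each nuclease-treated list 1, and it is the sole domain with that pattern. Its coverage was still lower after treatment, at 27.5, 25.1 and 21.6 times background against 19.9, 17.1 and 20.5. The other 3, on chromosome 11 from 95865681 to 95869249, chromosome 15 from 96528729 to 96531157 and chromosome 8 from 127419236 to 127422862, were chosen after their values were seen and had lower coverage too. Of the 6 domains with the highest bases ratios, the one on chromosome 7 was the sole one whose groups did not overlap in bases.

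Coverage was higher in all 3 nuclease-treated than in all 3 mock libraries at 1 domain, where 1.39% of all regions were. It lay on chromosome 10 from 80170500 to 80173495, with 10.2, 9.86 and 9.85 times background in mock and 10.4, 11.4 and 10.7 after treatment, which limma did not call (adjusted p = 0.617). The other 3 with the highest ratios lay on chromosome 4 from 155603662 to 155606888, chromosome 8 from 125334367 to 125337714 and chromosome 2 from 30200174 to 30206237, at ratios of 1.096, 1.084 and 1.082. All 4 were weak in mock, at 8.92 to 12.5 times background. The domain on chromosome 2 lost bases even so, from 4516, 4824 and 4675 to 2367, 2396 and 2645.

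The domain on chromosome 10 from 80784968 to 80789987 was the sole one without a peak in some list, nuclease-treated replicate 3. Peak numbers run through each list, and every list skips 1 number beside this domain. Whether a peak was called there in that library is not known here, and the missing value was not read as absence of binding. In each list 7 to 17 domains lay next to such a skipped number.

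Position in the genome was not used by the rule, and the domains were unevenly placed. Chromosome 10 held 88 domains, 14.6 per 1000 of its merged regions, and chromosomes 17 and 15 held 11.7 and 10.5 per 1000. Chromosome 6 was lowest at 3.61 per 1000. Of the chromosome 10 domains, 59 lay between 79 and 81 Mb, where 0.596% of all merged regions held 6.02% of the domains. The next densest megabase, chromosome 8 from 73 to 74 Mb, held 17 domains. In all, 40 megabases with 5 or more domains held 33.0% of the domains and 8.36% of the merged regions. These stretches were picked for their many domains, so a larger share of domains than of regions follows in part from that choice. No test of uneven placing was made. A domain had a median of 25 other merged regions within 50 kb and an intermediate region 16.

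Ratios were compared between these places as a description. The 34 domains at 80 to 81 Mb and the 25 at 79 to 80 Mb of chromosome 10 had median bases ratios of 0.897 and 0.889 and coverage ratios of 0.746 and 0.730. The 17 domains of chromosome 8 from 73 to 74 Mb had lower ratios, of 0.827 and 0.643. By chromosome, the median bases ratio ran from 0.823 on chromosome 3 to 0.896 on chromosome 11, and the coverage ratio from 0.641 on chromosome 18 to 0.735 on chromosome 4. All were below 1, and differences between places were not tested.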

How the data were processed

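TET1 ChIP-seq peaks of 3 mock and 3 nuclease-treated libraries were analysed; the 2 pooled inputs were not analysed on their own. The submitters' processing notes name MACS2 2.1.1, Bowtie2 2.2.8, bedtools 2.25.0, SAMtools 1.3.1, deepTools 2.4.3 and Picard, and the builds NCBIM37 and mm9; no parameters were given in those notes as used here. The authors called each list in 1 library against its condition's pooled input, as the deposited peak names show. In these lists the deposited fold is a ratio over local background. The deposited p-values and q-values are on a −log10 scale, and the score deposited beside them equals the latter times 10 without decimals.

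The whole-number summit coverage that gives both the deposited fold (coverage plus 1 over local background plus 1) and the Poisson p was solved; it matched within 0.001 for all peaks but 1. The most frequent local background is the library's genome-wide background. The peaks on autosomes were merged, and domains, lists and comparisons were chosen with earlier results of these data known. limma 3.58.1 was fitted to log2 coverage with no pseudocount over the regions with a peak in all lists. Named domains are the 8 with the most mock bases, the 6 lowest and 6 highest bases ratios, and the 6 lowest and 4 highest coverage ratios, chromosome 18 left out. The groups by local background, the intermediate regions and the bins of coverage were not among the planned results and were chosen after seeing the data. Solving, merging and the limma fit were tested on simulated data.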

Additional observations from a re-analysis of the deposited data

How the results depend on the processing

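Of 106 recomputed values, 74 stayed within a set spread and 32 moved by more, and none changed direction. That spread was the SD between the nuclease-treated lists, and for counts a factor of 1.5. For the summit shift it was the SD over the 9 pairs between groups, 47.1 bp, which is wide beside the shift of 85.3 bp. Of the values for the shift, 17 stayed within it and 1 moved. With 1500 or 3000 bp as the limit, peaks per domain rose by 0.346 or 0.648, the coverage ratio was 0.700 or 0.709 and limma called 1403 of 2561 or 125 of 244 domains lower, from other numbers of domains. Held-out mock replicates 1, 2 and 3 gave coverage ratios of 0.716, 0.712 and 0.731, and for replicates 1 and 3 the rise in peaks was 0.376 and 0.378. The label-blind choice gave 0.391 more peaks and a coverage ratio of 0.720. Domains chosen by the nuclease-treated lists gave ratios of 0.942 (bases), 0.933 (widest peak) and 0.731 (coverage), and 0.167 more peaks. With a −log10 q of 5 or more, the rise in peaks was 0.323. Keeping only peaks with local background at most 2 times the genome-wide level, which drops peaks whole, gave ratios of 0.653 (bases), 0.551 (widest peak) and 0.700 (coverage), 0.0259 more peaks and a summit shift of 318 bp in place of 85.3 bp. Where local background rose at most 1.1 times, an alternative added after seeing the data, the coverage ratio was 0.714 and the rise in peaks 0.384. The coverage ratio was 0.900 scaled by the median over shared regions, 0.669 in fragments and 0.574 as the deposited fold; with that scaling limma called 19 domains. The cause of these shifts was not tested.

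Leaving out 1 library gave ratios of 0.854 to 0.884 (bases), 0.732 to 0.784 (widest peak) and 0.704 to 0.715 (coverage), 0.451 to 0.507 more peaks and a summit shift of 69.6 to 98.4 bp. limma then called 355 to 423 domains in place of 521. Same-numbered libraries did not deviate together (correlations of 0.0119, -0.00458 and 0.0366 over regions), and with the replicate number as a block limma called 498 domains. Depth limits each domain to 30 to 50 fragments at a typical summit.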
